A study of Arabidopsis thaliana with 24 samples.

Results

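In Arabidopsis seedlings grown with titanium dioxide (TiO2, hereafter Ti), 57 genes had more transcript in roots and less transcript in shoots at 10 days than in control seedlings. These 57 genes are 0.44% of the 12946 nuclear genes that reached the level limit in both organs, and 18519 nuclear genes were listed for both organs in all. A gene was included when its control level at 10 days was at least 4.99 CPM (read counts scaled to a common library size) in roots and in shoots, its root value was higher with Ti by 0.35 or more on the log2 scale (1.27-fold), and its shoot value was lower by 0.35 or more (78.5% of control or less). The 10-day differences chose the genes, so they are given as a description, without a test.

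The study asked which genes respond to Ti in each organ and how early. Seedlings of the Col-0 accession were moved after 5 days to agar medium with 2 mM Ti or without it. Roots (R) and shoots (S) were harvested 3 and 10 days (3D and 10D) later in pools of 160 seedlings, and RNA-seq of 24 libraries gave the 8 groups Ctrl-R-3D, Ti-R-3D, Ctrl-R-10D, Ti-R-10D, Ctrl-S-3D, Ti-S-3D, Ctrl-S-10D and Ti-S-10D. All groups share the Col-0 background, and the controls received no Ti.

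What was deposited is a log2 CPM value taken from a fitted model, and the 3 columns of a group hold the same number for every gene (0 genes with a difference in either organ). Each group therefore has 1 value per gene, and neither an SD nor a test between groups can be given. Roots and shoots were normalized separately, so their levels are given side by side and a gap between them is not a measured difference. CPM values are not corrected for transcript length, so levels of different genes do not give their relative abundance. In whole organs, fewer cells of a type and less RNA per cell cannot be told apart. Over all 12946 genes, the robust SD of the difference with Ti (spread estimated from the median absolute deviation) was 0.23 in roots and 0.22 in shoots at 10 days, and 0.08 and 0.12 at 3 days. The limit of 0.35 lies at 1.55 and 1.59 times the 10-day spreads. The organ labels were checked at 10 days in controls: 12 shoot marker genes summed to 68959 CPM in shoots and 1085 CPM in roots, and 16 root marker genes summed to 1217 CPM in roots, while 11 of them were listed in shoots with 94.3 CPM in sum.

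Heat shock proteins are chaperones that keep other proteins folded or pull them out of aggregates, and heat shock factors switch their genes on when unfolded proteins accumulate. Aliphatic glucosinolates are sulfur-containing defence compounds made from methionine by chain elongation and then by cytochromes P450 of the CYP79F and CYP83A families. Sulfate transporters take up the sulfur that this pathway uses, and abscisic acid receptors of the PYL family sense the hormone of drought and osmotic stress.

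Of the 12946 genes, 793 (6.13%) were past the root limit at 10 days and 913 (7.05%) were past the shoot limit. Both limits were passed by 57 genes, the reverse pattern (lower in roots, higher in shoots) by 36 genes, higher in both organs by 190 genes, and lower in both by 308 genes. The share past both limits, 0.44%, is close to the product of the root share and the shoot share. The number of genes alone therefore does not mark them as a set with a shared response. The median difference of the 57 genes was 0.51 in roots and -0.57 in shoots, and 19 of them were beyond 0.5 in both organs while 12 were under 0.5 in both. By function, assigned after the genes and their values were known, 16 genes belong to heat shock and chaperone functions, 5 to aliphatic glucosinolate synthesis, 6 to nutrient and metal handling, 4 to hormone and defence signalling, and 6 to sugar and phloem. A further 7 share very long transcripts, and 13 had other functions.

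**Figure D1:**
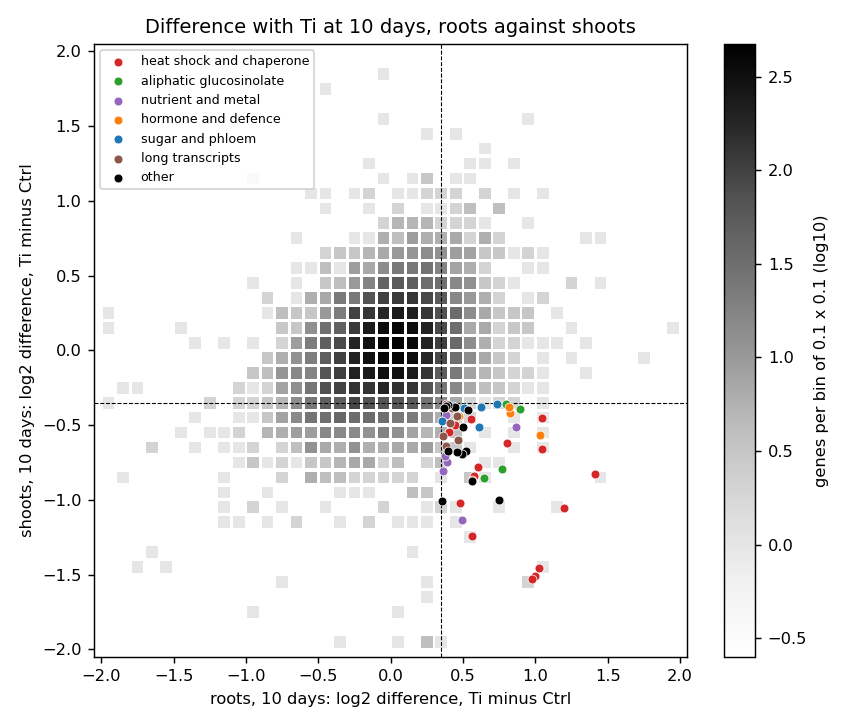
Log2 difference between Ti and Ctrl at 10 days in roots (x axis) and shoots (y axis), with all 12946 genes as grey bins and the 57 genes as points coloured by function. The dashed lines are the limits of 0.35 and -0.35, and the heat shock genes reach farthest into the lower right corner, up to 1.41 in roots and down to -1.53 in shoots.

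Genes lay close to both limits on either side. Just inside the root limit were AT1G14200 (0.35), SWEET2 (0.36) and CIP1 (0.36), and just outside it were AT1G53430 (0.35), AT5G24740 (0.34) and BAT5 (0.34). Just inside the shoot limit were SUC2 (-0.36), AT1G48090 (-0.36) and CYP83A1 (-0.36), and just outside it were ESL1 (-0.35), AT4G31570 (-0.35) and AGP10 (-0.34). The genes on both sides of a limit differed by a few hundredths on the log2 scale.

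The 16 heat shock and chaperone genes held the largest differences of the set. Their median was 0.70 in roots and -0.84 in shoots at 10 days, 5 of them were at least doubled in roots, and 6 were at least halved in shoots. They comprise the factors HSFA2, DREB2A and MBF1C, the ATP-driven chaperones HSP101, CLPB4, HSP90.1, HSP70, HSP70T-2 and Hsp70b, the small heat shock protein AT5G51440, the DnaJ proteins AT2G20560, AT1G72416 and AT3G14200, and the helpers BAG6, Fes1A and AT1G66080. Genes whose annotated product names a heat shock protein, a DnaJ protein or a chaperone made up 10 of the 57 (17.5%) and 180 of all 12946 genes (1.39%). Most of the 180 were inside the limits of 0.35 at 10 days, and their medians were -0.00 in roots and -0.03 in shoots. In roots 19 of the 180 (10.6%) were past the upper limit and 15 (8.33%) past the lower one, against 6.13% and 8.57% of all genes. In shoots 29 of the 180 (16.1%) were past the lower limit and 9 (5%) past the upper one, against 7.05% and 7.32%. The 10 genes of the set that are among the 180 are part of these counts. Of a list of 13 oxidative stress and heat genes at the level limit, HSFA2, HSP70, HSP90.1 and HSP101 were the 4 past both limits, and the 9 others were not. The words searched in the product names were chosen after the 57 genes were known.

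Promoters of 3 of these genes are shown because they hold a heat shock element, the inverted repeat bound by heat shock factors. Each covers the 250 bases before the annotated gene start in the RefSeq annotation of TAIR10.1, 5′ to 3′ on the strand of the gene, and capitals mark GAANNTTC or TTCNNGAA, which read the same on both strands. HSFA2 lies on the plus strand (chr2:11135374-11135623), as do DREB2A (chr5:1601955-1602204) and AT5G51440 (chr5:20890913-20891162).
HSFA2: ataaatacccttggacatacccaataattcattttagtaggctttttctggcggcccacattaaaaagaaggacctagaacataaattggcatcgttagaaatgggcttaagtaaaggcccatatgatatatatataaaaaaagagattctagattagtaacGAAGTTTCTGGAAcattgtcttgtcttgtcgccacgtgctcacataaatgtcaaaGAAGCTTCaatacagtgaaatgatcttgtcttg
DREB2A: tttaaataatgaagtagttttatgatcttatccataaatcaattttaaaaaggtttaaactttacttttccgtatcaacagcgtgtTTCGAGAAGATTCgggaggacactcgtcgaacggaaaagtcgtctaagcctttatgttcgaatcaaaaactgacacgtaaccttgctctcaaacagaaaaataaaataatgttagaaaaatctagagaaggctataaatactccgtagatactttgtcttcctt
AT5G51440: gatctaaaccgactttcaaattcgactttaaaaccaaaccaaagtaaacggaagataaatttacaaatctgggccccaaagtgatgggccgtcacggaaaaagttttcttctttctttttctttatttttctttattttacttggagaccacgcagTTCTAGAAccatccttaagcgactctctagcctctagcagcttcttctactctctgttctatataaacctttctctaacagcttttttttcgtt

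The HSFA2 promoter holds 3 elements, which begin 88, 83 and 33 bases before the gene start, and the first 2 of them share 3 bases. DREB2A holds 2 overlapping elements that begin 164 and 159 bases before the start, and AT5G51440 holds 1 element at 94 bases. The form GAANNTTC was in 3 of the 16 promoters (18.8%) and in 9.05% of the 12944 promoters of the genes tested. The form TTCNNGAA, added after that first count, was in 5 of 16 (31.3%) and in 7.52% of the promoters tested. Either form was in 6 of 16 (37.5%) against 15.5%, and 2 or more elements were in 2 of 16 (12.5%) against 1.58%. Outside the 16, either form was in 6 of the 41 other genes of the set (14.6%). These include 2 of the 5 glucosinolate genes (40%). Other motifs also departed from the share of the promoters tested. The GCC-box (GCCGCC) was in 2 of the 16 (12.5%) against 2.04%, and the W-box (TTGACC or TTGACT) in 2 (12.5%) against 27.5%. A match describes these letters only, and the remaining 10 promoters hold neither form in this window, which stops at the annotated start.

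HSFA2, a heat shock factor whose own gene is switched on by heat, was at 4.1 CPM in Ctrl-R-3D, 3.44 in Ti-R-3D, 11.1 in Ctrl-R-10D, with 22.1 in Ti-R-10D. Its shoot level was 2.22 CPM in Ctrl-S-3D, 1.19 in Ti-S-3D, 63.6 in Ctrl-S-10D and 22.4 in Ti-S-10D. With Ti it was thus 1.99-fold higher in roots at 10 days and at 35.1% of control in shoots, while at 3 days its Ti value was the lower of the pair in both organs (-0.25 and -0.89 on the log2 scale).

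HSP101, the disaggregase required for acquired heat tolerance, had 28.7 CPM in Ctrl-R-3D, 23.6 in Ti-R-3D, 64.4 in Ctrl-R-10D, with 127 in Ti-R-10D. Its shoot levels were 13.3 CPM in Ctrl-S-3D, 12.2 in Ti-S-3D, 136 in Ctrl-S-10D and 47.2 in Ti-S-10D. The shoot difference of -1.53 at 10 days was the lowest among the 57 genes, and the root difference was 0.98. An overlapping gene is listed in both organs, and with its CPM added the differences were 0.90 and -1.50.

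HSP90.1, the heat-inducible cytosolic HSP90, had the highest root difference of the 57 genes, 1.41 (2.66-fold). Its root levels were 29.5 CPM in Ctrl-R-3D, 25.7 in Ti-R-3D, 74.8 in Ctrl-R-10D, with 199 in Ti-R-10D. The shoot levels were 10.2 CPM in Ctrl-S-3D, 7.80 in Ti-S-3D, 240.5 in Ctrl-S-10D and 135 in Ti-S-10D. The 10-day shoot value with Ti was 56.2% of control, yet far above both 3-day values.

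The cytosolic chaperone HSP70 had 203 CPM in Ctrl-R-3D, 158 in Ti-R-3D, 433 in Ctrl-R-10D, with 893 in Ti-R-10D. Its shoot levels were 34.3 CPM in Ctrl-S-3D, 26.9 in Ti-S-3D, 626 in Ctrl-S-10D and 457 in Ti-S-10D. HSP70 was 2.06-fold higher in roots and at 73.1% of control in shoots at 10 days, and lower with Ti in both organs at 3 days (-0.36 and -0.35).

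AT5G51440, an HSP20-like chaperone, was at 10.9, 11.0, 24.2 and 55.4 CPM in Ctrl-R-3D, Ti-R-3D, Ctrl-R-10D and Ti-R-10D. In Ctrl-S-3D, Ti-S-3D, Ctrl-S-10D and Ti-S-10D it was at 2.78, 2.18, 47.3 and 22.8 CPM. The 10-day differences were 1.2 in roots and -1.05 in shoots. AT2G20560, a DnaJ protein of the kind that hands substrates to HSP70, had 23.2, 20.5, 44.7 and 91.1 CPM in the same order of root groups, and 5.27, 3.55, 63.7 and 23.2 CPM in the shoot groups. Its differences of 1.03 and -1.45 resemble those of HSFA2 and HSP101 in both organs.

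DREB2A, a transcription factor of the drought and heat responses, had 45.4, 48.6, 76.1 and 133 CPM in Ctrl-R-3D, Ti-R-3D, Ctrl-R-10D and Ti-R-10D. Its shoot levels were 7.22, 7.39, 8.31 and 5.41 CPM in Ctrl-S-3D, Ti-S-3D, Ctrl-S-10D and Ti-S-10D. Unlike most heat shock genes in the set it stayed low in shoots at both ages. MBF1C, a transcriptional coactivator of heat tolerance, had 37.1, 25.4, 85.9 and 128 CPM in the root groups and 11.6, 6.65, 59.6 and 33.2 CPM in the shoot groups. It was 0.58 in roots and -0.84 in shoots at 10 days, but -0.55 and -0.80 at 3 days. With the CPM of its 2 overlapping genes added, the 10-day differences were 0.32 and -0.29, inside both limits.

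The other 8 heat shock and chaperone genes ranged from 0.40 (Hsp70b) to 1.04 (AT1G72416) in roots and from -1.24 (BAG6) to -0.46 (CLPB4) in shoots at 10 days. BAG6, a calmodulin-binding co-chaperone, was at 16.2 CPM in Ctrl-R-10D, 24 in Ti-R-10D, 25 in Ctrl-S-10D and 10.6 in Ti-S-10D. Fes1A, a nucleotide exchange factor of HSP70, was at 39.0, 57.5, 70.1 and 38.4 CPM in those 4 groups. AT3G14200, a DnaJ protein, was at 55.0, 76.6, 49.2 and 24.3 CPM. Among the 8, AT3G14200 was the lowest in shoots relative to control after BAG6, at 49.3%.

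In shoots, the median difference of these genes with age was larger than that with Ti, although DREB2A (0.20 with age in controls and -0.62 with Ti) and AT1G72416 (0.41 and -0.66) went the other way. In control shoots the 16 genes were all higher at 10 than at 3 days, by a median of 2.44 on the log2 scale, 14 of them by more than 1 and HSFA2 by 4.84, whereas 3.28% of all 12946 genes were higher by more than 1. In shoots with Ti the median was 1.90, against 0.06 over all genes. In control roots 14 of 16 were higher at 10 days with a median of 0.67, against 0.04 over all genes. In roots with Ti the median was 1.41, against 0.03. These changes with age include the 10-day values that chose the genes.

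**Figure D2:**
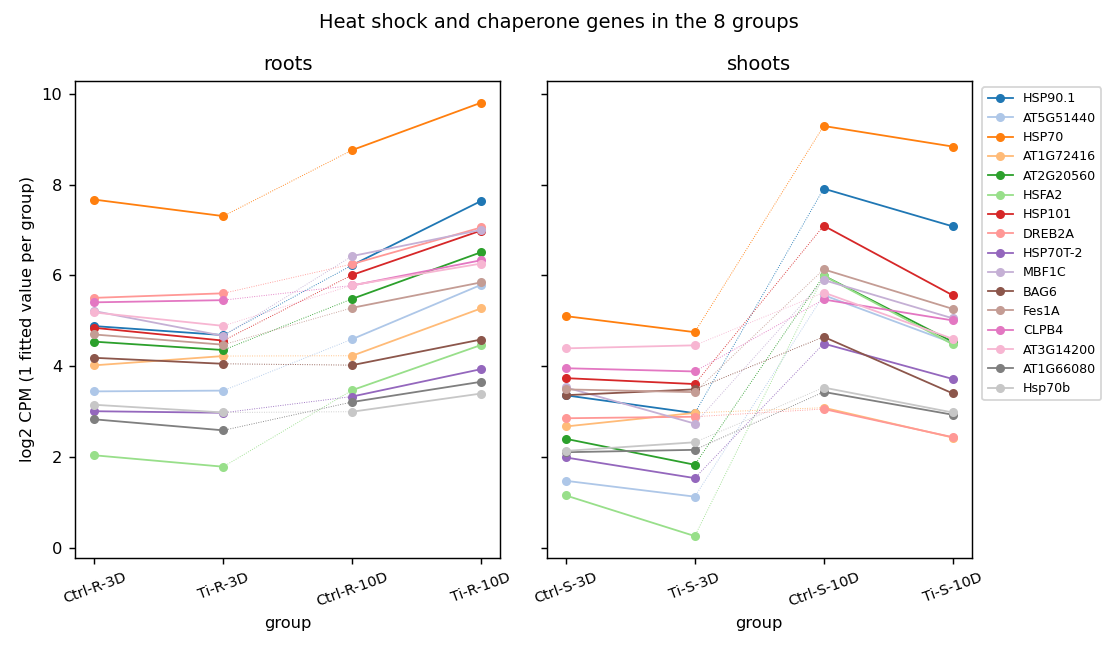
Level of the 16 heat shock and chaperone genes as log2 CPM (y axis) in the 4 root groups and the 4 shoot groups (x axis), 1 fitted value per group, with solid lines joining Ctrl to Ti at one age. HSFA2 goes from 11.1 to 22.1 CPM from Ctrl to Ti in roots at 10 days and from 63.6 to 22.4 CPM in shoots, and most shoot lines lie far lower at 3 days than at 10 days.

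The 3-day samples were not used to choose the genes. At 3 days the heat shock genes were not higher in roots with Ti: 7 of the 16 were lower by more than 0.2, against 2.71% of all genes, and 1 was higher, against 2.67%. In shoots 7 of the 16 were lower by more than 0.2, against 5.39% of all genes, and 1 was higher, against 7.18%. The medians were -0.19 and -0.10, and 8 of the 16 were below 0 in both organs. The genes were not independent of each other, and with 1 value per group the differences could not be tested.

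Over all 57 genes, the median difference at 3 days was 0.01 in roots and 0.02 in shoots. In roots 9 of the 57 genes were higher and 9 lower by more than 0.2, against 2.67% and 2.71% of all genes. In shoots 9 of the 57 were higher and 13 lower, against 7.18% and 5.39% of all genes. No gene of the 57 met the rule at 3 days. The limits of the rule lie at 4.18 times the 3-day spread of all genes in roots and 3.01 times in shoots. That no gene met it therefore says little about the 57. By sign, 12 had both signs as at 10 days, 11 had both signs reversed, 16 were lower in both organs and 18 were higher in both. The shares of all genes with these signs were not counted. The medians of the 57 genes at 3 days did not show the 10-day pattern.

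**Figure D3:**
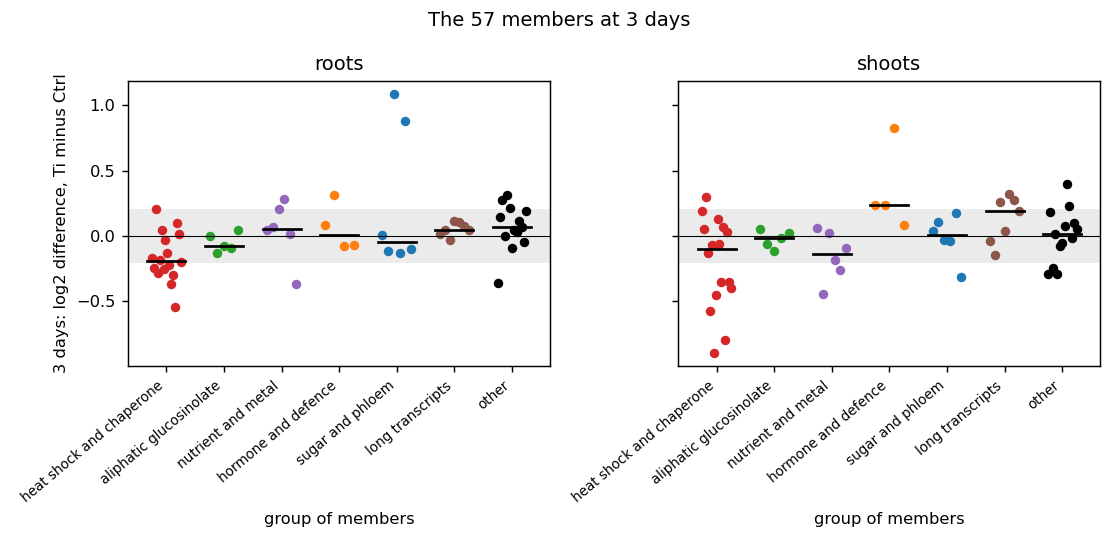
Log2 difference between Ti and Ctrl at 3 days (y axis) for each of the 57 genes in roots and in shoots, by function (x axis), where a point is a gene, the bar is the median and the grey band spans -0.2 to 0.2. Heat shock genes lie mostly below 0 in both organs, down to -0.89 for HSFA2 in shoots, and FBA1 (1.08) and CT-BMY (0.88) stand highest in roots.

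Aliphatic glucosinolate synthesis was the next group by function. MAM1, IPMI1 and IPMI2 act in the chain elongation of methionine, CYP79F2 turns the elongated amino acid into an aldoxime, and CYP83A1 oxidizes that aldoxime. All 5 were lower in control roots at 10 than at 3 days (median -1.47), against a median of 0.04 over all genes. At 10 days their root values with Ti lay between those of the control at both ages in 4 of the 5. At 3 days none of the 5 was beyond 0.2 in either organ, which was also so for most genes. Of all genes, 2.67% were higher and 2.71% lower by more than 0.2 in roots, and 7.18% and 5.39% in shoots.

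CYP79F2 had 47.2 CPM in Ctrl-R-3D, 47.1 in Ti-R-3D, 16.1 in Ctrl-R-10D, with 27.3 in Ti-R-10D. Its shoot levels were 17.0, 17.7, 14.4 and 8.30 CPM in Ctrl-S-3D, Ti-S-3D, Ctrl-S-10D and Ti-S-10D. IPMI1 had 48.5, 46.1, 17.5 and 27.4 CPM in the root groups and 58.8, 54.2, 28.9 and 16.0 CPM in the shoot groups. For both genes the 3-day pairs were nearly level and the 10-day pairs were apart, by 0.77 and -0.79 for CYP79F2 and by 0.64 and -0.86 for IPMI1.

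MAM1 had 33.7, 34.8, 24.1 and 44.7 CPM in the root groups and 259, 263, 254 and 194 CPM in the shoot groups, with 10-day differences of 0.89 and -0.39. CYP83A1 had 65.5, 61.5, 23.5 and 40.8 CPM in roots and 185, 183, 153 and 119 CPM in shoots, with differences of 0.80 and -0.36. IPMI2 had 39.7, 36.4, 17.4 and 23.9 CPM in roots and 95, 91.0, 68.9 and 45.5 CPM in shoots, with differences of 0.46 and -0.60. MAM1 was the exception in roots, since its Ti value at 10 days exceeded both 3-day values.

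Of a list of 20 glucosinolate genes at the level limit, 8 were past the upper and 5 past the lower limit of 0.35 in roots at 10 days. The shares of all genes were 6.13% and 8.57%. In shoots 1 of the 20 was past the upper and 10 past the lower limit, against 7.32% and 7.05% of all genes. By sign alone, 12 were above 0 in roots and 17 below 0 in shoots. The list's median was 0.26 in roots and -0.31 in shoots, against 0.00 and 0.01 for all 12946 genes. Of the other aliphatic genes, IMS2 (0.34 in roots and -0.55 in shoots) and the transporter BAT5 (0.34 and -0.79) were just short of the root limit. BCAT4, the first step of elongation, was at 0.94 and -0.19, IMD1 at 0.18 and -0.65, SOT18 at 0.40 and -0.04, and SOT17 at -0.23 and -0.12. Among genes of the indole branch, the enzymes CYP79B2 (-0.86), CYP79B3 (-0.78) and CYP83B1 (-0.72) and the regulator MYB34 (-0.39) were past the lower limit in roots. The regulator MYB51 was past the upper limit in roots (0.71) and in shoots (0.99). SOT16 was also past the lower root limit (-0.47 in roots and -0.26 in shoots). Also on the list, SUR1 was at -0.25 and -0.47, and UGT74B1 at -0.21 and 0.15. MYB28, the main regulator of the aliphatic branch, was at 0.14 and 0.07.

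**Figure D4:**
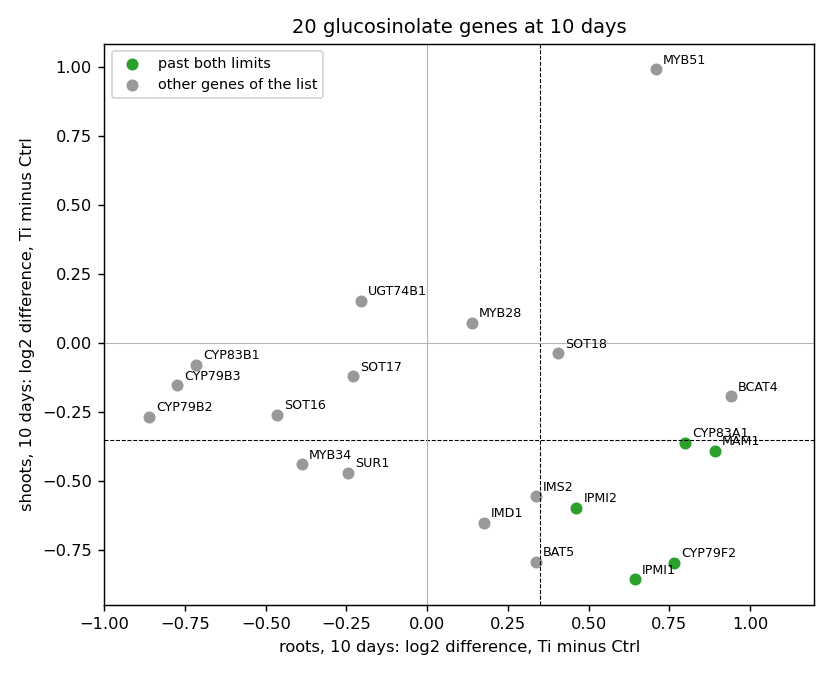
Log2 difference between Ti and Ctrl at 10 days in roots (x axis) and shoots (y axis) for the 20 glucosinolate genes at the level limit, where green points passed both limits (dashed lines). The aliphatic genes CYP79F2, IPMI1, IPMI2, MAM1 and CYP83A1 lie at the lower right, and the indole genes CYP79B2 (-0.86 in roots), CYP79B3 and CYP83B1 lie at the left.

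Promoters of 3 glucosinolate genes are shown because each holds the AC element ACCTACC, a site of MYB proteins. The windows, strand and source are as above, capitals mark ACCTACC or its reverse complement, and the genes are CYP79F2 (plus strand, chr1:5604794-5605043), IPMI2 (plus strand, chr2:17920397-17920646) and CYP83A1 (minus strand, chr4:7992430-7992679).
CYP79F2: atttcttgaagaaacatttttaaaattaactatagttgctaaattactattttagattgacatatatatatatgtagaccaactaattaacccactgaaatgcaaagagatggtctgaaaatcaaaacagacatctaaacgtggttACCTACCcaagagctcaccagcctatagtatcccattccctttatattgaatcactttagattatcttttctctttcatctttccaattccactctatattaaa
IPMI2: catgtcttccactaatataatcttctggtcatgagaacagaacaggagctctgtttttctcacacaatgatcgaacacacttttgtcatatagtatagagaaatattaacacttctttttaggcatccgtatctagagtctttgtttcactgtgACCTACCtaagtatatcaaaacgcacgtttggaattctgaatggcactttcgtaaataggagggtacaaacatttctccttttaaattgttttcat
CYP83A1: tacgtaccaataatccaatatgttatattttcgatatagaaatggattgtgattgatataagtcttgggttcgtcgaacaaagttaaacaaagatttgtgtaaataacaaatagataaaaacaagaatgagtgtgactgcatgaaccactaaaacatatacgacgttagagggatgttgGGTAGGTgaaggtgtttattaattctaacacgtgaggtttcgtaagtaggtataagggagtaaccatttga

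The element begins 104 bases before the gene start in CYP79F2, 96 in IPMI2 and 71 in CYP83A1. It was in 3 of the 57 promoters, all 3 of glucosinolate genes, and in 1.2% of the 12944 promoters of the genes tested. None of the 15 other genes of the glucosinolate list holds it in this window. The element was singled out because it stood out among 18 motifs searched, so its share is a description. Of the 5 glucosinolate genes past both limits, 3 hold the core of the abscisic acid response element (ACGTGG or ACGTGT, on either strand). This core was picked from the same search. It was in 2 of the 15 other genes of the list and in 16.8% of the promoters tested. The TATA box (TATAAA) was also in 3 of the 5, against 45.4% of the promoters tested.

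Among nutrient genes, the sulfate transporters SULTR1;2 and SULTR4;2 were past both limits. SULTR1;2, the main carrier for sulfate uptake by roots, had 411 CPM in Ctrl-R-3D, 431 in Ti-R-3D, 313 in Ctrl-R-10D, with 409.6 in Ti-R-10D, and 17.9, 13.2, 16.5 and 9.84 CPM in the shoot groups. The shoot value was lower with Ti at both ages (-0.44 at 3 days and -0.75 at 10 days). Root marker genes were also lower in shoots with Ti: of 11 listed in shoots, 8 were lower and 0 higher by more than 0.2 at 3 days, and 6 were lower and 1 higher at 10 days. The shares of all genes were 5.39% and 7.18% at 3 days and 17.9% and 19.3% at 10 days, and the summed level of the markers went from 114 to 103 CPM and from 94.3 to 86.1 CPM. The part of root material in the shoot values of SULTR1;2 was not tested.

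SULTR4;2, which exports sulfate from the vacuole, had 20.9, 25.3, 14.4 and 18.6 CPM in the root groups and 11.1, 9.82, 14.5 and 8.30 CPM in the shoot groups. With its overlapping gene added the differences were 0.27 and -0.77, so the root difference then lay inside the limit. Of 8 sulfur deficiency genes at the level limit, 2 were past the upper and 0 past the lower limit of 0.35 in roots at 10 days. The shares of all genes were 6.13% and 8.57%. In shoots 7 of the 8 were past the lower limit, against 7.05% of all genes, with a list median of -2.09. All 8 were above 0 in roots and below 0 in shoots, while the medians of all genes were 0.00 and 0.01. The 2 past the root limit were SULTR1;2 and SULTR4;2.

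NIR1, the nitrite reductase of nitrate assimilation, had 216, 249, 186 and 262 CPM in the root groups and 285, 289.6, 179 and 81.5 CPM in the shoot groups. Its shoot difference of -1.14 at 10 days was the largest of the nutrient genes, and its root difference was 0.50. FER1, an iron-storing ferritin, had 116, 89.8, 145 and 187 CPM in roots and 117, 109.7, 289 and 177 CPM in shoots. FER1 was lower with Ti in roots at 3 days (-0.37) and higher at 10 days (0.37). AT1G51340, a MATE efflux protein, differed by 0.87 and -0.51, and CLC-B, of the chloride channel family, by 0.38 and -0.43, or by 0.26 and -0.32 with its overlapping gene.

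The hormone and defence genes were the abscisic acid receptors PYL4 and PYL6, the transcription factor WRKY18 and the immune receptor TAO1. PYL6 had 68.8, 85.2, 31.6 and 64.6 CPM in the root groups and 12.8, 15.1, 9.86 and 6.65 CPM in the shoot groups. PYL4 had 145, 154, 123 and 216 CPM in roots and 106, 125, 124 and 95.6 CPM in shoots. Both receptors were higher with Ti in shoots at 3 days (0.24 for PYL6 and 0.23 for PYL4) and lower at 10 days (-0.57 and -0.38).

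WRKY18 had 5.12, 4.87, 12.4 and 22.0 CPM in roots and 5.32, 9.41, 17.9 and 13.4 CPM in shoots, so its shoot difference was 0.82 at 3 days and -0.42 at 10 days. TAO1 differed by 0.47 in roots and -0.44 in shoots, and by 0.22 and -0.39 with its overlapping gene. Of 18 immune regulators at the level limit, 9 were past the upper and 0 past the lower limit of 0.35 in roots at 10 days. The shares of all genes were 6.13% and 8.57%. In shoots 5 of the 18 were past the upper limit, and WRKY18 was the 1 gene past the lower limit. The shares of all genes in shoots were 7.32% and 7.05%. By sign alone, 16 of the 18 were above 0 in roots and 4 below 0 in shoots, while the medians of all genes were 0.00 and 0.01.

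Sugar and phloem genes had smaller shoot differences, from -0.51 (SUS1) to -0.36 (SUC2). SUC2, the sucrose carrier that loads the phloem, had 54.1, 49.9, 73.0 and 121 CPM in the root groups and 167, 179, 162 and 127 CPM in the shoot groups. SUS1, a sucrose synthase, had 56.2, 52.5, 63.3 and 96.8 CPM in roots and 14.1, 11.3, 16.0 and 11.2 CPM in shoots. CalS7, the callose synthase of phloem sieve plates, differed by 0.43 and -0.37, and the sugar transporter SWEET2 by 0.36 and -0.47. These 4 genes were within 0.2 at 3 days, as were most of all genes, except SUS1 in shoots (-0.31).

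The plastid enzymes FBA1, a fructose-bisphosphate aldolase, and CT-BMY, a starch-degrading beta-amylase, carry out steps of photosynthetic and starch metabolism. FBA1 had 4.23, 8.97, 6.07 and 8.63 CPM in roots and 1530.5, 1498, 1399 and 1069 CPM in shoots. CT-BMY had 0.95, 1.75, 5.51 and 8.49 CPM in roots and 191, 216, 82.3 and 63.3 CPM in shoots. Their root differences at 3 days (1.08 and 0.88) were the highest of the 57 genes. Shoot marker genes were also higher in roots with Ti: 10 of 12 by more than 0.2 at 3 days, with 0 lower, against 2.67% and 2.71% of all genes (summed level 858 CPM in Ctrl and 1043 CPM in Ti). At 10 days 6 of the 12 were higher and 2 lower by more than 0.2, against 17.8% and 20.2% (1085 and 1204 CPM). Their part in the root values of FBA1 and CT-BMY was not tested. With its overlapping gene added, CT-BMY differed by 0.22 in roots at 10 days.

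The 7 genes grouped by transcript length had transcripts of 4480 to 13076 bases. Their 10-day differences were 0.36 to 0.47 in roots and -0.64 to -0.36 in shoots, where the rule bounded 1 end of each range. They include ATM, the kinase of the response to DNA breaks, the actin-binding protein NET1D, CIP1, and the putative lipid-binding protein AT1G48090. ATM had 28.7, 30.2, 29.0 and 38.5 CPM in roots and 28.1, 34.0, 27.1 and 19.4 CPM in shoots. NET1D had 140.0, 141, 133 and 179 CPM in roots and 46.9, 45.8, 62.2 and 47.6 CPM in shoots. Transcripts over 4000 bases were 8 of the 57 (14.0%, CalS7 included) and 5.12% of all 12946 genes. They were 0 of the 36 genes of the reverse pattern, 2.11% of those higher in both organs and 0.97% of those lower in both. Of this group AT2G42270, a helicase of the spliceosome, fell inside both limits with its overlapping gene (0.29 and -0.22).

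The remaining 13 genes ranged from 0.35 (AT1G14200) to 0.75 (AT1G73600) in roots and from -1.01 (AT1G14200) to -0.37 (AT4G33770) in shoots. AT1G73600, a methyltransferase, had 62.1, 75.2, 24.7 and 41.4 CPM in roots and 328, 277, 60.9 and 30.4 CPM in shoots. AT1G14200, a RING-type protein, had 31.4, 24.5, 68.9 and 87.9 CPM in roots and 13.3, 10.9, 35.7 and 17.8 CPM in shoots, and its 3-day differences were -0.36 and -0.29. AT1G78850, a lectin, differed by 0.37 and -0.38. At 3 days the differences of this group lay between -0.36 and 0.32 in roots and between -0.29 and 0.39 in shoots, the last being the laccase LAC8.

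Some values could not be assigned to 1 gene. Of the 57 genes, 16 overlap or nearly repeat another gene of the reference, and for 12 of these a partner was listed in both organs. After adding the partners' CPM, NET1D and HSP101 remained past both limits and 10 did not. Besides the genes named above these were LpxC1 (0.26 and 0.00, with 3 near-identical copies), AT3G23510 (0.29 and -0.27), LAC8 (0.39 and -0.33) and AT1G14200 (0.29 and -0.92). The counting program could split reads between such genes, so their values are uncertain.

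Other pathways contributed few of the 57 genes. DREB2A was the only one of 14 cold and drought genes at the level limit (7.14%) and FER1 of 10 iron genes (10%). NIR1 was the only one of 19 nitrogen genes (5.26%) and FBA1 of 29 photosynthesis genes (3.45%). None came from the lists for jasmonate (11 genes), ethylene (12), auxin and shade (19), the clock (18), phosphate (9), sugar starvation (13) or flavonoids (4). With a share of 0.44% over all genes, lists this short cannot show that a pathway is absent or present.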

How the data were processed

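RNA-seq of Arabidopsis Col-0 roots and shoots was analysed from the deposited tables. Per the submitters' processing notes and methods, the authors checked and trimmed reads (FastQC 0.11.9, Trim Galore 0.6.6), quantified Araport11 transcripts with kallisto 0.44.0, summed them to genes and fitted each organ separately with edgeR once genes of low CPM had been dropped. Each deposited log2 CPM is a value of that fit, 1 per gene and group, so total counts per library could not be read from them and counting intervals were not computed.

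Differences are Ti minus Ctrl of the same organ and age, computed in Python 3.11.15 with pandas 2.3.3 and numpy 2.4.6. At 3 days a gene was called higher or lower beyond 0.2 (1.15-fold). The planned limma fit and tests on replicates were impossible, since a group has 1 value. Gene names, transcripts and promoters (250 bases) come from RefSeq TAIR10.1, not the authors' annotation, and the promoter starts at the outermost annotated gene start. Partners were found with blastn 2.17.0+ (95% identity over 80% of a transcript) or by overlapping exons. Among promoters, 17 motifs were searched first, and TTCNNGAA was added later.

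Named genes were the largest and smallest differences, those nearest the limits, the highest levels and every member of a gene list. The members, lists and functional groups were chosen with earlier results of these data known. The calculation was checked on simulated data. Figures were drawn with matplotlib 3.10.9.

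Alternatives were pseudocounts of 0.1 and 1 CPM, other scalings, level limits and difference limits, and sums with partner genes.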

Additional observations from a re-analysis of the deposited data

Results flagged for a closer look

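For 6 of the 57 genes the difference with Ti at 3 days lay beyond 0.35 in the direction opposite to 10 days in the same organ. The limit of 0.35 for this comparison was set after the values were seen, and the change with age was not tested because each group has 1 value. In roots these were MBF1C (-0.55 at 3 days and 0.58 at 10 days), FER1 (-0.37 and 0.37), HSP70 (-0.36 and 1.04) and AT1G14200 (-0.36 and 0.35). In shoots they were WRKY18 (0.82 at 3 days and -0.42 at 10 days) and LAC8 (0.39 and -0.67). MBF1C, LAC8 and AT1G14200 overlap other genes. The share of all genes with such a reversal was not counted, so whether 6 of 57 is unusual cannot be told.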

How the results depend on the processing

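No paired analysis was possible because the 3 columns of a group hold the same value, and for that reason no replicate could be left out either. The number of genes past both limits was 57, and it was 229 with no filter on the control level, 280 with a limit of 0.2 and 19 with a limit of 0.5 (11 of them heat shock and chaperone genes). It was 57 and 51 with pseudocounts of 0.1 and 1 CPM, 56 with the median over genes set to 0, 63 with equal sums over nuclear genes, 40 with a level limit of 9.99 CPM, and 47 with partner genes summed. Leaving out genes with a partner, an alternative chosen after seeing the data, gave 41. With the stricter level limit, 3 instead of 9 genes were higher in roots at 3 days, and the median of the heat shock genes in shoots at 3 days was -0.35 instead of -0.10, by construction over fewer genes. Leaving out the 3 heat shock genes lowest at 3 days, also chosen after seeing the data, gave medians of -0.17 in roots and -0.06 in shoots. With the level limit of 9.99 CPM, the 3-day median of the whole set was -0.04 in roots and -0.05 in shoots instead of 0.01 and 0.02, so its sign is not stable around 0. The 10-day sign of each of the 57 genes was the same under the pseudocounts and scalings, but this was fixed in advance. An equal pseudocount in both groups cannot change a sign. The scalings moved the differences by at most 0.05, far less than the limit of 0.35 that chose the genes. With partner genes summed, LpxC1 in shoots turned from -0.67 to 0.0013. Depth per gene and the spread of each gene between libraries cannot be read from the deposited values. The authors reported a common variation between libraries for each organ, which was larger in shoots than in roots. The limit of 0.35 was not set from it. Genes near a limit, such as SWEET2, AT1G14200 and SULTR4;2, pass or miss it with small changes of scale.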
